A study of Mus musculus with 10 samples.

Results

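The genes described here are 34 mouse genes of glucose metabolism and of the response to low oxygen: 3 glucose transporters, 3 hexokinases, 12 genes of the steps from glucose 6-phosphate to pyruvate, 4 genes of lactate metabolism and export, 4 regulators of flux, 4 enzymes of the pentose phosphate pathway, and 4 hypoxia-linked genes. They were taken by exact gene symbol, and all 34 were found, among 22064 genes in the tables of sorted cells and among 19333 genes in the table of cultured cells. The rule reads symbols only. The cultured cells were oligodendrocyte precursor cells (OPCs), the progenitors of myelin-forming glia, isolated by immunopanning and kept for 3 days in medium with PDGFAA. Wild-type cultures (n = 3) came from Apc-fl/fl littermates and Apc-deleted cultures (n = 3) from Olig2-Cre:Apc-fl/fl mice, in which Cre is driven by Olig2, a gene of the oligodendrocyte lineage. APC is part of the complex that marks beta-catenin for destruction, so its loss releases Wnt target genes. The sorted cells came from spinal cords of mice with EAE (experimental autoimmune encephalomyelitis), in which the immune system attacks myelin, taken at day 18; their genotype was Pdgfra-CreER:Apc-fl/fl. They comprised 3 libraries of CD11b+Gr-1+NK1.1+ cells, called cytotoxic macrophages by the submitters, and 1 library labelled Th1, of CD4+ cells. Every group, including the wild-type cultures, carried floxed Apc alleles, and no library of sorted cells came from mice without EAE. The sources used here do not describe tamoxifen treatment of the CreER mice.

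Glycolysis converts glucose to pyruvate in the cytosol. Glucose enters through SLC2A transporters and is trapped by hexokinases, which exist as isoforms with different tissue distributions, and pyruvate can be reduced to lactate by lactate dehydrogenase and exported by monocarboxylate transporters. The pentose phosphate pathway branches off at glucose 6-phosphate and supplies NADPH, which neutrophils and other phagocytes use for the oxidative burst, and OPCs use for lipid synthesis. HIF1A is a transcription factor that accumulates under low oxygen and raises many glycolytic genes together with Adm, Vegfa and Bnip3, by binding promoter and enhancer sites with the core ACGTG or GCGTG.

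The promoters of 6 members are shown because the comparisons below turn on these genes. Adm was the only member that passed the test in OPC cultures, Bnip3, Hk3, Ldha and Pgk1 were the 4 members called higher in the library labelled Th1 than in the macrophage libraries in every fit, and Taldo1 had the widest difference in the other direction among members with a read in both groups. Each window runs from 250 bases before to 50 bases after the annotated start of transcription, on the strand of the gene, from RefSeq on GRCm38. Capitals mark every match to ACGTG or GCGTG on either strand, and the palindrome CACGTG matches on both strands and is counted for each. The Adm window is chr7:110627407-110627706 on the plus strand, Bnip3 is chr7:138909457-138909756 on the minus strand, Hk3 is chr13:55021336-55021635 on the minus strand, Ldha is chr7:46845554-46845853 on the plus strand, Pgk1 is chrX:106186850-106187149 on the plus strand, and Taldo1 is chr7:141391910-141392209 on the plus strand.
Adm: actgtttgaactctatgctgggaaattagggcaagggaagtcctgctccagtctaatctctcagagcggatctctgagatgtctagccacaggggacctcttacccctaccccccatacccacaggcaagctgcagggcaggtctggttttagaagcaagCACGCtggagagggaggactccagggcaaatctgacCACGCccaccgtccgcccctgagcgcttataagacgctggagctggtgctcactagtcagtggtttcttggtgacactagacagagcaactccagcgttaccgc
Bnip3: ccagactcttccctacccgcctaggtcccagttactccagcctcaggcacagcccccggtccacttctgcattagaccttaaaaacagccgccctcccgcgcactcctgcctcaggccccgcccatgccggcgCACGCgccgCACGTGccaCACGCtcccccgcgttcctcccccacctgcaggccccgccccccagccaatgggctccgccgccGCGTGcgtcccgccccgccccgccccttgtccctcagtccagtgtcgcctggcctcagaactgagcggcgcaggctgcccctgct
Hk3: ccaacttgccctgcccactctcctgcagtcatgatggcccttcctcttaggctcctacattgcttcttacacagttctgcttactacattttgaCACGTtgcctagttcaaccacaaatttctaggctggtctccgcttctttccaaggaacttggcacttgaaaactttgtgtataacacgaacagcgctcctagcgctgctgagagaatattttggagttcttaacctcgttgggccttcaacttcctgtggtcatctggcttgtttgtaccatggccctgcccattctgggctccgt
Ldha: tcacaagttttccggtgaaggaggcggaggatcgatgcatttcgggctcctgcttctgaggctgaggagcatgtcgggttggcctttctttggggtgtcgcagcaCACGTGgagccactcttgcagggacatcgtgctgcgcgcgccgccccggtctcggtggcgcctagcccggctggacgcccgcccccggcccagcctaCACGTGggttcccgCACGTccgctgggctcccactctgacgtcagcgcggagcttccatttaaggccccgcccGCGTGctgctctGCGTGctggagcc
Pgk1: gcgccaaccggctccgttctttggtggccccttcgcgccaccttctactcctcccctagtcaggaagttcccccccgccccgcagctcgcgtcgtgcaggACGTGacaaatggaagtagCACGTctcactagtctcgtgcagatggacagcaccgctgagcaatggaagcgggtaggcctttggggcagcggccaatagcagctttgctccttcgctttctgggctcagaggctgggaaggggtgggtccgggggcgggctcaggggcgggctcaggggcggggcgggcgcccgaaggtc
Taldo1: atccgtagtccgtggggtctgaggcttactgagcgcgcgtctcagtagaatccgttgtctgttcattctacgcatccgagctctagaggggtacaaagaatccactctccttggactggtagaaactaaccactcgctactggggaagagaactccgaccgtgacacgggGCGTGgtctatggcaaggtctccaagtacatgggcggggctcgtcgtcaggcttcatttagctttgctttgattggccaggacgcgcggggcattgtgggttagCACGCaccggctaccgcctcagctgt
The Ldha window held 7 matches, Bnip3 5, Adm, Pgk1 and Taldo1 2 each, and Hk3 1, an ACGTG. Both matches in Adm and in Taldo1 had the GCGTG core, and both in Pgk1 had ACGTG. A promoter was found for 33 of the 34 members, all but Slc2a3. With 1 window per gene, 15 of 33 members (45.5%) held ACGTG on either strand, against 19.7% of the windows of all 27025 genes, and 26 of 33 (78.8%) held either core, against 43.8%. The members' windows were also richer in G and C, with a median of 62.0% against 52.7%. Among windows with at least 60% G and C, 12 of 20 members held ACGTG, against 26.8% of 7931 windows of all genes. Either core was held by 18 of these 20 members (90%), against 69.7% of the 7931 windows, a narrower contrast than without regard to G and C. These are matches of letters in a window, and binding was not measured.

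The macrophage libraries held 23174908 to 23564215 estimated reads and the library labelled Th1 3051730. At least 10 reads were counted for 11005 to 11079 genes in the macrophage libraries and for 2134 genes in the library labelled Th1, where 3984 of the 6550 genes above 0 had fewer than 5 reads. A count of 0 there allows up to 0.983 CPM (counts scaled to the library total; 3 reads), counting error only. The labels were checked against marker genes. In the macrophage libraries the 12 neutrophil markers summed to 433992 to 437076 TPM, a length-scaled share of the library,, against 33832 to 34398 TPM for 10 monocyte and macrophage markers and 26.7 to 27.8 TPM for 8 NK markers. In the library labelled Th1, 9 of 10 T cell markers, Cd3e and Cd4 among them, and all 8 NK markers had no read. The remaining T cell marker, Lck, stood at 66.3 TPM there, against 3.48 to 4.13 TPM for all 10 together in the macrophage libraries. The neutrophil markers summed to 25190 TPM in the library labelled Th1, though Ly6g, Mmp8 and Mmp9 had no read. The monocyte and macrophage markers summed to 11281 TPM, though Ly6c2, Plac8 and Ccr2 had no read. This library is therefore called "the library labelled Th1" throughout. The name "macrophage libraries" likewise only repeats the submitters' label, since neutrophil markers far exceeded monocyte and macrophage markers there. In the table of OPC cultures the 7 neuron markers summed to 328467 mean normalized counts and the 7 OPC markers to 36454 in the authors' deposited table, so RNA of other cell types was present in those cultures. All levels and isoform shares of OPC cultures below are those of the whole culture, and the part of each cell type in them was not tested. The labels do not say whether the 3 macrophage libraries came from separate animals, and their spread may be technical. In such bulk samples fewer cells of a type and less RNA per cell cannot be told apart.

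In the libraries labelled macrophage, most glycolytic members and all pentose phosphate members were above 1 TPM. In these libraries 27 of 34 members reached a mean of 1 TPM, 17 reached 10 TPM and 6 reached 100 TPM: Gapdh, Taldo1, Aldoa, Eno1, Pkm and Ldha. Of all 22064 genes, 4396 had a mean of 1 to 10 TPM there, 1649 of 10 to 100 TPM and 568 of at least 100 TPM. The members together took 3352 to 3461 TPM there, of which Gapdh alone made 48.1%, and 10662 TPM in the library labelled Th1, of which Gapdh made 67.2%. The 10 most abundant genes of all took 49.3% to 49.6% of the TPM in the macrophage libraries and 14.7% in the library labelled Th1, and every TPM value depends on this remainder. In the library labelled Th1 8 members had more than 1000 reads, 8 had no read and 15 had a read but fewer than 10. The whole library was sparse, with a read for 29.7% of all genes. Among the genes tested below, 47.4% had no read there, against 18.75% of the members tested. Low counts were thus not particular to the members.

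**Figure D1:**
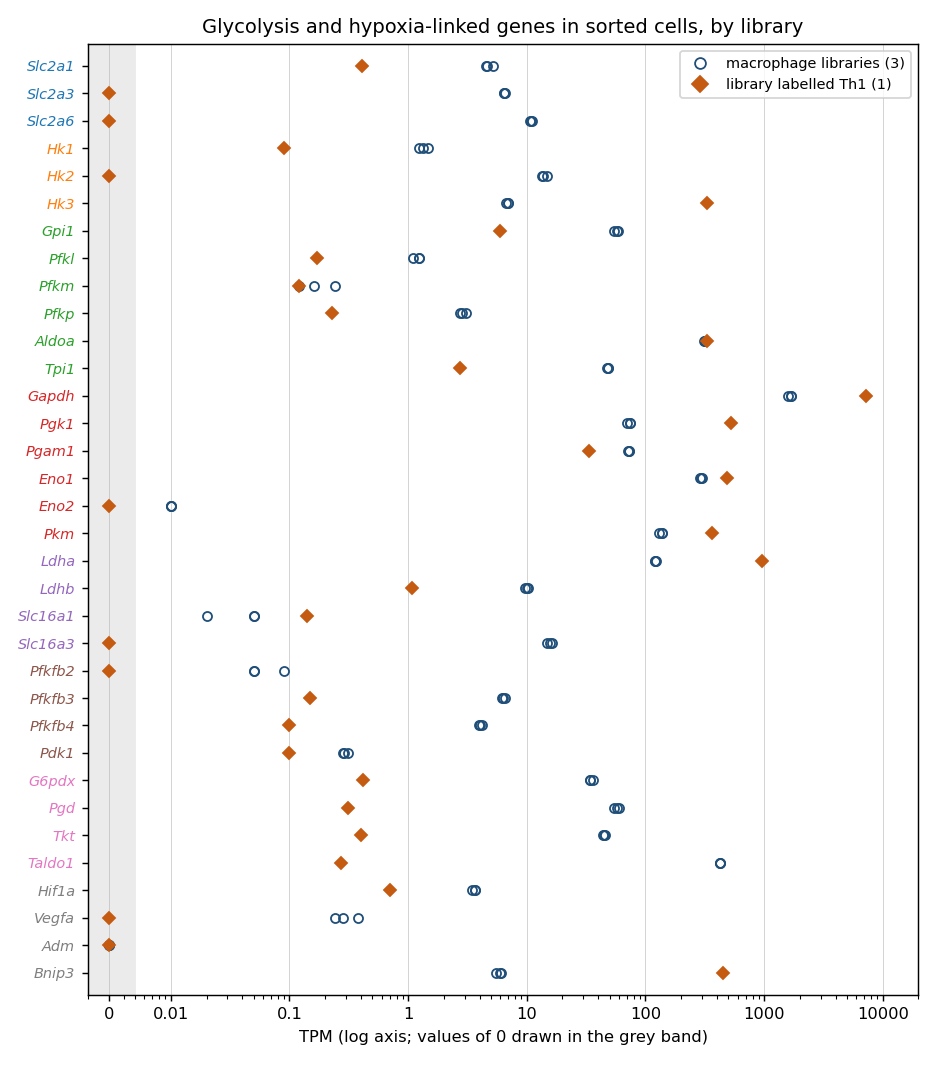
TPM of the 34 members (rows, coloured by role from glucose uptake at the top to hypoxia at the bottom) in the 3 macrophage libraries (open circles) and in the library labelled Th1 (diamonds), on a log axis with values of 0 in the grey band. The macrophage circles overlap for most genes, while the diamonds lie far to the right for Hk3 and Bnip3 and far to the left for the 4 pentose phosphate genes G6pdx, Pgd, Tkt and Taldo1.

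Glucose transporters were moderate in the macrophage libraries and near the limit of detection in the library labelled Th1. Slc2a6, a transporter of lysosomal membranes in phagocytes, stood at 10.68, 10.90 and 11.04 TPM in the macrophage libraries (mean 10.9 TPM ± 0.18, SD, n = 3). Slc2a3 (GLUT3), a high-affinity transporter, stood at 6.43, 6.47 and 6.56 TPM, and Slc2a1 (GLUT1), the transporter of basal glucose uptake and a HIF target, at 4.49, 4.59 and 5.18 TPM. The library labelled Th1 had no read of Slc2a3 or Slc2a6 and 3 reads of Slc2a1 (0.41 TPM). Each of the 3 genes was thus higher in every macrophage library than in the library labelled Th1. Family shares, here and below, count only genes of this set and leave out other genes of the same family. On that basis Slc2a6 made 49.2% ± 0.75 (SD, n = 3) of the family's summed TPM in the macrophage libraries, Slc2a3 29.3% ± 0.49 and Slc2a1 21.5% ± 1.1. In OPC cultures the order was another one: by mean normalized count per kilobase of exon in the authors' deposited table, Slc2a3 made 49.98% of the family, Slc2a1 28.2% and Slc2a6 21.8%.

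Each source had a different leading hexokinase. In OPC cultures Hk1, the isoform that predominates in brain, made 93.1% of the hexokinase level per kilobase in the authors' deposited table, with Hk2 at 6.75% and Hk3 at 0.172%. Neuron markers were abundant in these cultures, as given above, and their part in the Hk1 share was not tested. The macrophage libraries had Hk2, the inducible isoform of muscle and activated leukocytes, at 13.5, 13.7 and 14.9 TPM, Hk3, the isoform of myeloid cells, at 6.66, 6.96 and 6.97 TPM, and Hk1 at 1.24, 1.34 and 1.48 TPM. Hk2 thereby made 63.1% ± 0.68 (SD, n = 3) of the family, Hk3 30.8% ± 0.98 and Hk1 6.07% ± 0.36. When estimated reads were divided by exon length in place of the deposited TPM, Hk2 made 48.6% and Hk3 46.1%, so the lead of Hk2 over Hk3 depends on the length used. In the library labelled Th1 Hk3 stood at 328 TPM with 3056 reads, Hk1 had 1 read and Hk2 none. Hk3 made 3056 of the 3057 hexokinase reads there, a share of reads of 99.97% with a 95% Wilson interval of 99.81% to 99.99%.

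Of the upper glycolytic steps, aldolase was the most abundant in all sources. Aldoa, the aldolase of most tissues, stood at 313, 317 and 318 TPM in the macrophage libraries and at 332 TPM in the library labelled Th1. Gpi1, which converts glucose 6-phosphate to fructose 6-phosphate, stood at 54.4, 57.2 and 58.4 TPM, and Tpi1, which interconverts the triose phosphates, at 47.6, 48.4 and 48.6 TPM. Both were far lower in the library labelled Th1, with 5.97 TPM (53 reads) and 2.76 TPM (13 reads). Phosphofructokinase, the committed step of glycolysis, was low in the macrophage libraries. Pfkp, the platelet isoform, stood at 2.74, 2.85 and 3.06 TPM, Pfkl, the liver isoform, at 1.11, 1.23 and 1.24 TPM, and Pfkm, the muscle isoform, at 0.12, 0.16 and 0.24 TPM. The shares within the family were 67.8% ± 2.6 (SD, n = 3) for Pfkp, 28.1% ± 1.2 for Pfkl and 4.07% ± 1.4 for Pfkm. With reads divided by exon length, Pfkl made 45.4%, Pfkp 44.6% and Pfkm 9.99%, so Pfkl and Pfkp cannot be ranked. The library labelled Th1 had 5 reads for the 3 genes together, too few for a share. In OPC cultures Pfkp made 45.8%, Pfkm 41.6% and Pfkl 12.6% per kilobase in the authors' deposited table.

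In the sorted libraries the 6 genes of the lower glycolytic steps summed to 2158 to 2252 TPM (macrophage) and 8577 TPM (labelled Th1), most of it Gapdh. Gapdh, which forms 1,3-bisphosphoglycerate and NADH, stood at 1595, 1671 and 1673 TPM in the macrophage libraries and at 7163 TPM in the library labelled Th1. Pgk1, the first ATP-forming enzyme of the pathway, stood at 70.3, 74.1 and 74.3 TPM and at 527 TPM, and Pkm, pyruvate kinase of non-hepatic tissues, at 130, 137 and 137 TPM and at 367 TPM. Eno1, the general enolase, stood at 290, 293 and 297 TPM and at 486 TPM. For these 4 genes the TPM of the library labelled Th1 lay above all 3 macrophage values. Pgam1, phosphoglycerate mutase, went the other way on this scale, with 71.9, 73.2 and 73.3 TPM against 33.2 TPM. Eno2, the neuronal enolase, had 0.01 TPM in each macrophage library and no read in the library labelled Th1, so Eno1 made all 2561 reads of this pair in the latter. Outside the pair, Eno3 stood at a mean of 2.56 TPM in the macrophage libraries, and Eno1b had 57 reads in the library labelled Th1. In OPC cultures Eno2 made 96.0% of the pair per kilobase and Eno1 3.99% in the authors' deposited table. The high Eno2 was accompanied by the neuron markers given above, and their part in it was not tested.

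In OPC cultures Gapdh, Pgk1, Pgam1 and Eno1 were listed far below Aldoa and Pkm. Gapdh had a mean of 29.7 normalized counts, Pgk1 21.2, Pgam1 3.10 and Eno1 189 in the authors' deposited table, while Aldoa had 5551 and Pkm 3892. Per kilobase, Gapdh ranked at percentile 23.1 of all genes in the authors' deposited table, Pgk1 at 27.3, Pgam1 at 4.37 and Eno1 at 49.6, against 98.1 for Aldoa and 94.6 for Pkm. In the macrophage libraries the same 4 genes ranked at percentiles 99.5, 94.9, 94.8 and 97.9 of the genes above 0. A search of the coding sequences against annotated mouse transcripts found other genes with at least 90% identity over at least 300 bases for 13 of 34 members: 177 for Gapdh, 168 of them annotated pseudogenes, 4 for Pgk1, 3 for Pgam1 and 6 for Eno1, with the closest at 100%, 100%, 100% and 99.6% identity. Aldoa (7 copies) and Pkm (8 copies) had copies too, the closest at 93.7% and 98.4%. Reads that fit several copies can be dropped or split by a counter, and its part in these levels was not tested. The OPC levels of these genes, and the enolase shares, are therefore uncertain.

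Lactate dehydrogenase and lactate export also differed in isoform. Ldha, which favours the formation of lactate, stood at 120, 121 and 123 TPM in the macrophage libraries and at 959 TPM in the library labelled Th1. Ldhb, which favours the use of lactate, stood at 9.70, 10.1 and 10.3 TPM and at 1.07 TPM (4 reads). Ldha thus made 92.4% ± 0.27 (SD, n = 3) of this pair in the macrophage libraries, and in the library labelled Th1 it made 4581 of the pair's 4585 reads. Ldhc, outside the pair, stood at a mean of 3.21 TPM in the macrophage libraries and had no read in the library labelled Th1. In OPC cultures Ldhb made 58.9% and Ldha 41.1% per kilobase in the authors' deposited table. The search given above found 13 copies for Ldha, the closest at 95.9% identity, and 1 for Ldhb, at 98.0%. Their part in the shares of this pair was not tested, so these OPC shares are uncertain too. Slc16a3 (MCT4), the lactate exporter of glycolytic cells, stood at 14.9, 15.6 and 16.4 TPM in the macrophage libraries and had no read in the library labelled Th1. Slc16a1 (MCT1), a transporter of lactate in both directions, stood at 0.02, 0.05 and 0.05 TPM in the macrophage libraries and had 2 reads in the library labelled Th1. Of this pair the macrophage libraries therefore had almost only Slc16a3 (99.7% ± 0.11, SD, n = 3), whereas Slc16a1 made 94.2% of the pair per kilobase for OPC cultures in the authors' deposited table. Slc16a7, outside the pair, stood at a mean of 0.487 TPM in the macrophage libraries. In OPC cultures it had a mean of 667 normalized counts in the authors' deposited table.

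**Figure D2:**
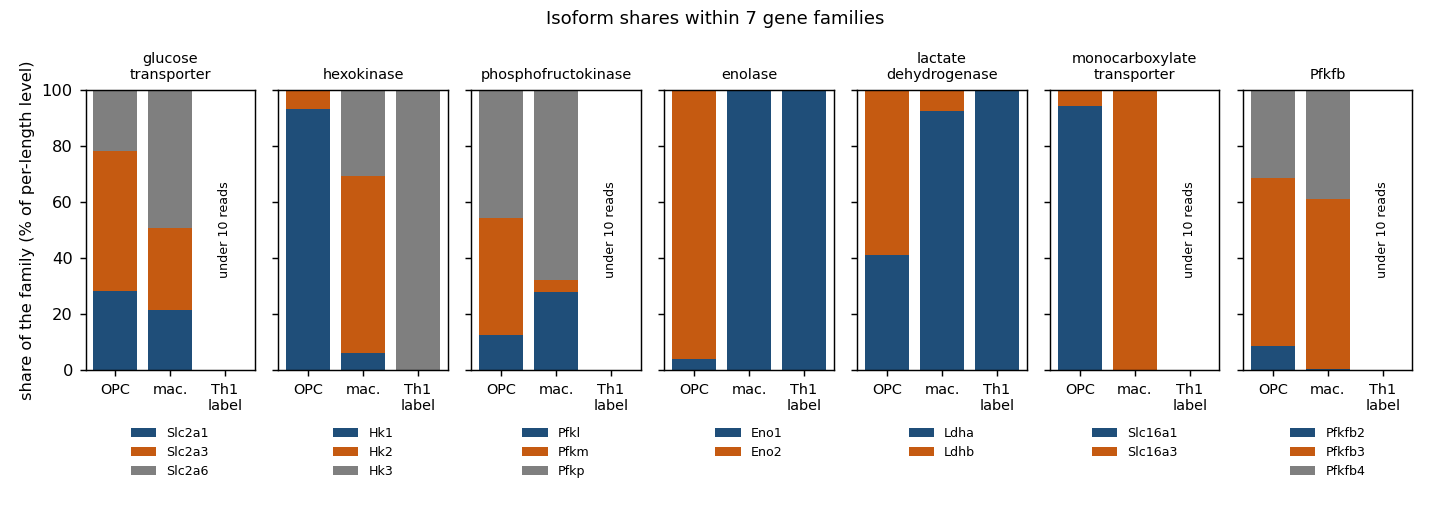
Share of each isoform (percent of the summed per-length level of the plotted genes of its family) in OPC cultures (the authors' deposited table, mean normalized count per kilobase), macrophage libraries (mean of 3, TPM) and the library labelled Th1 (TPM, shown only where the plotted genes had at least 10 reads). OPC bars are led by Hk1, Eno2, Ldhb and Slc16a1, macrophage bars by Hk2, Eno1, Ldha and Slc16a3, and the hexokinase bar of the library labelled Th1 is Hk3.

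Regulators of flux were at modest levels. PFKFB enzymes set the level of fructose 2,6-bisphosphate, the activator of phosphofructokinase. Pfkfb3, the inducible isoform, stood at 6.20, 6.30 and 6.50 TPM in the macrophage libraries and Pfkfb4 at 3.99, 4.07 and 4.22 TPM, while Pfkfb2, the isoform first known from heart, stood at 0.05 to 0.09 TPM. Pfkfb3 made 60.4% ± 0.31 (SD, n = 3) of the family there and 60.1% per kilobase for OPC cultures in the authors' deposited table. With macrophage reads also divided by exon length, Pfkfb3 made 58.1%. Pdk1, which inhibits pyruvate dehydrogenase, stood at 0.28, 0.29 and 0.31 TPM. The library labelled Th1 had 2 reads of Pfkfb3, 1 of Pfkfb4, 1 of Pdk1 and none of Pfkfb2.

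The pentose phosphate genes were abundant in the macrophage libraries and nearly without reads in the library labelled Th1. Taldo1, transaldolase of the non-oxidative branch, was the second most abundant member of the macrophage libraries at 427, 427 and 429 TPM (mean 427 TPM ± 1.0, SD, n = 3). Pgd, the second NADPH-forming dehydrogenase, stood at 54.9, 58.2 and 59.5 TPM, Tkt, transketolase, at 44.3, 44.8 and 45.3 TPM, and G6pdx, the entry enzyme, at 34.2, 34.4 and 36.1 TPM. The library labelled Th1 had 1 read of Taldo1, 2 of Pgd, 4 of Tkt and 3 of G6pdx. The 4 genes together took 563 to 567 TPM in the macrophage libraries and 1.40 TPM in the library labelled Th1. In OPC cultures Tkt and Taldo1 ranked at percentiles 96.1 and 96.6 of all genes per kilobase, Pgd at 87.5 and G6pdx at 52.3, in the authors' deposited table.

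The hypoxia-linked genes were not high together. Hif1a, the oxygen-regulated subunit of the factor, stood at 3.43, 3.63 and 3.66 TPM in the macrophage libraries and had 9 reads (0.71 TPM) in the library labelled Th1. Bnip3, a mitochondrial protein of mitophagy and a HIF target, stood at 5.47, 5.92 and 6.12 TPM against 451 TPM (2349 reads). Vegfa, the angiogenic growth factor, stood at 0.24, 0.28 and 0.38 TPM and had no read in the library labelled Th1. Adm, the precursor of the vasodilator peptide adrenomedullin, had no read in any of the 4 sorted libraries, at a limit of 0.127 to 0.129 CPM in the macrophage libraries. The high Bnip3 of the library labelled Th1 was thus not shared by Vegfa, Adm or Hif1a, nor by the HIF targets Slc2a1, Slc2a3, Pfkfb3 and Slc16a3, while Ldha and Pgk1 were high with it.

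The next comparison asked which members changed in OPC cultures when Apc was deleted. Adm was higher and no other member passed the test. In the authors' deposited table Adm (ENSMUSG00000030790, GRCm38 chr7:110627661-110629820, plus strand) had a mean of 110.6 normalized counts and rose by 1.03 on the log2 scale (SE 0.25, adjusted p = 0.00838), which is 2.04-fold. The mean and fold in the authors' deposited table imply group means of 72.8 normalized counts in wild-type and 148 in Apc-deleted cultures. That makes 1 of 34 members called at an adjusted p under 0.05, and 1 higher, in the authors' deposited table, against 0.548% of all 19333 genes called and 0.393% called higher. The authors' deposited table gives no value per culture, so it cannot be shown how many of the 3 cultures per genotype were high.

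Most of the other 33 members had estimates near no change in the authors' deposited table. Of all 34, 15 pointed higher and 19 lower, and the median log2 fold change was -0.02 against 0.00 for all genes. Within 0.5 log2 units of no change lay 32 members (94.1%), against 86.6% of all genes. Among genes with a mean of at least 10 normalized counts the share was 92.8%, close to that of the members. Before adjustment Pfkfb3 alone of these 33 had a p under 0.05: its log2 fold change in the authors' deposited table was 0.38 (SE 0.18, unadjusted p = 0.0372), and it did not pass the adjustment. Hk2 had a log2 fold change of 0.44 (SE 0.24) and Slc2a1 one of 0.24 (SE 0.21), and neither passed in the authors' deposited table. Hk3 had the largest log2 value, 1.30, with an SE of 1.04 at a mean of 3.67 normalized counts in the authors' deposited table and a 95% interval of -0.74 to 3.34. Pgam1, the other member with a mean under 10, had an interval of -1.87 to 2.23 in the authors' deposited table, so neither gene can be placed. The intervals of Pgk1 (-0.91 to 1.13) and Gapdh (-0.51 to 0.96) were also wide in the authors' deposited table.

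By role, the estimates in the authors' deposited table were small. All 6 upper glycolytic genes pointed lower, between -0.11 and -0.01, and all 4 pentose phosphate genes higher, between 0.03 and 0.22, with none passing in the authors' deposited table. The hypoxia-linked genes did not follow Adm: in the authors' deposited table Hif1a had -0.07 (95% interval -0.26 to 0.12), Vegfa -0.12 (-0.42 to 0.17) and Bnip3 -0.35 (-0.89 to 0.19). Of 66 other genes of the same pathways 60 were in the authors' deposited table and none was called, with a median of -0.04. Before adjustment 3 of them had a p under 0.05 in the authors' deposited table, and they are named after their values were seen: the gluconeogenic enzyme Fbp1 (-1.33, SE 0.60), the glycerol 3-phosphate dehydrogenase Gpd1 (0.36, SE 0.17) and the pyruvate dehydrogenase phosphatase Pdp2 (0.40, SE 0.18). Markers of other cell types moved as follows in the authors' deposited table: 6 of 7 monocyte and macrophage markers pointed higher in Apc-deleted cultures and 2 passed, Lyz2 with 4.33 (SE 0.96) and Cd68 with 1.54 (SE 0.36). Before adjustment 3 of these 7 had a p under 0.05 in the authors' deposited table, and Adgre1 had 1.87 (SE 0.65) without passing. The most abundant of that list, C1qa, had 0.17 (SE 0.14) and Csf1r 0.01 (SE 0.16) in the authors' deposited table. Of 5 microglia markers 3 pointed higher without passing, Tmem119 (0.87) and Sall1 (0.85) the furthest, in the authors' deposited table. Before adjustment 2 of the 5 had a p under 0.05 there. All 10 neutrophil markers and 5 of 6 erythroid markers pointed lower there, also without passing (3 erythroid markers had a p under 0.05 before adjustment), with medians of -0.30 and -0.22 in the authors' deposited table. The OPC marker Gpr17, of differentiating precursors, was lower in the authors' deposited table at -1.16 (SE 0.15, adjusted p = 2.14e-10), the 1 of 7 OPC markers that passed. All 3 endothelial markers and all 7 neuron markers pointed lower without passing, at -0.13 to -0.08 and -0.17 to -0.01, in the authors' deposited table. The part of these cells in the Adm value was not tested.

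**Figure D3:**
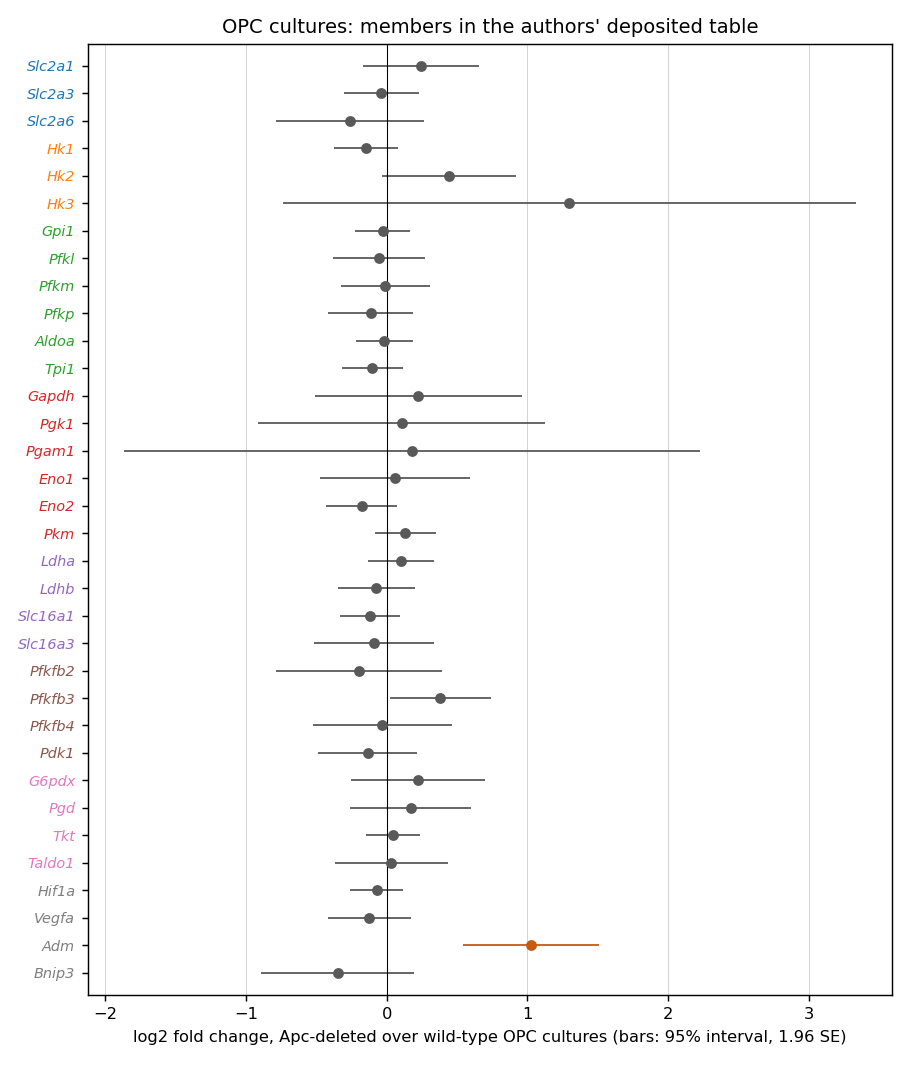
Log2 fold change of each member, Apc-deleted over wild-type OPC cultures, from the authors' deposited table, with bars for the 95% interval and gene names coloured by role. Adm (coloured point) is the only member whose adjusted p was under 0.05, at 1.03; the bars of Hk3 and Pgam1 are long because their mean counts were 3.67 and 3.10.

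The last comparison set the library labelled Th1 against the 3 macrophage libraries. Bnip3 and Hk3 were by far the most raised members, followed by Ldha, Pgk1, Gapdh and Pkm, while the pentose phosphate genes, Hk2, Slc16a3, Slc2a3 and Slc2a6 were lower in every fit. Of the 34 members 32 had enough reads to be tested, and 6 were called higher and 17 lower, with edgeR's quasi-likelihood test at an adjusted p under 0.05 and a difference of at least 4-fold. These are 18.8% and 53.1% of the members tested, against 13.7% called higher and 54.6% called lower of all 11447 genes tested. The share called lower over all genes rests in large part on genes with no read: 3672 of the 6245 lower calls had none in the library labelled Th1, and for 3114 of these the bound that 3 reads allow, under the least favourable of 3 scalings, was under 4-fold. Without those calls, a count added after the data were seen, 27.4% of all genes and 53.1% of the members were lower, the 4 members with no read among the 17 having bounds above 4-fold. The bound can be large only for genes abundant in the macrophage libraries, as many members are, so neither share is read as setting the members apart. The comparison rests on 1 library, which the test takes to vary as little as the 3 macrophage libraries do, and the labels' cell types are in doubt as given above. No adjusted p is therefore printed for single genes here.

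The size of each difference depended on how the libraries were put on a common scale. With DESeq2's size factors in place of TMM the differences of genes with reads rose by 1.52 log2 units, giving 9 members higher and 10 lower (28.1% and 31.3% of those tested), against 17.6% and 30.1% of all genes. With library size alone they moved the other way, with a median over all genes of -6.25 against -5.61 under TMM, giving 4 higher and 20 lower (12.5% and 62.5%), against 9.59% and 71.3% of all genes. Under TMM the median difference was -2.81 for the members and -5.61 for all genes, but 47.4% of the genes tested had no read in the library labelled Th1, and their fitted values depend on a small added count. With such genes set at the bound that 3 reads allow, the medians were -2.35 for the members and -0.96 for all genes, so that the members' place relative to all genes turned with this choice.

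Bnip3 was 121-fold higher in the library labelled Th1 with TMM, and between 43.1-fold and 347-fold with the other scalings. Hk3 was 73.4-fold higher (26.0 to 210), Ldha 12.4-fold (4.41 to 35.5) and Pgk1 11.4-fold (4.03 to 32.5). These 4 genes were called higher in all 8 fits that were run, which comprised 3 scalings in edgeR, DESeq2's own test, no filter on low counts and the omission of each macrophage library. Gapdh was 6.83-fold higher (2.42 to 19.5) and Pkm 4.30-fold (1.52 to 12.3), and with library size alone neither reached 4-fold. Pkm was also under 4-fold with no filter on low counts (log2 difference 1.66). Eno1 and Aldoa were 2.60-fold and 1.68-fold higher with TMM and are not called there. With DESeq2's size factors they were 7.44-fold and 4.80-fold higher, and with library size alone they changed direction. Slc16a1, with 2 reads in the library labelled Th1, was 5.89-fold higher with TMM and 16.9-fold with DESeq2's size factors. Eno1, Aldoa and Slc16a1 were called higher only with those size factors and with DESeq2's own test. Of the 6 genes called higher all but Hk3 have near copies in the genome (5 for Bnip3, the closest at 98.9% identity, and 13 for Ldha, the closest at 95.9%), and how reads were shared among copies was not tested. Among the differences of all genes tested, Bnip3 ranked at percentile 97.2 and Hk3 at 96.2.

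Of the lower members 10 were called in all 8 fits: Slc2a3, Slc2a6, Hk2, Slc16a3, Pfkfb3, Pfkfb4, G6pdx, Pgd, Tkt and Taldo1. For those with no read only a bound can be given, taken from 3 reads and the least favourable of the 3 scalings: Slc16a3 was at least 8.51-fold lower, Hk2 at least 8.29-fold, Slc2a3 at least 6.58-fold and Slc2a6 at least 5.16-fold. Taldo1, with 1 read against a mean of 21126 in the macrophage libraries, was lower by a ratio of 977 with TMM, with a counting interval of 175 to 38584. Pgd (2 reads) was lower by a ratio of 124 (34.2 to 1020), Tkt (4 reads) by 72.4 (28.3 to 266) and G6pdx (3 reads) by 53.1 (18.2 to 257). All 4 pentose phosphate genes were thus called lower in every fit, and in no other role were all members called lower in every fit. How many of all genes were called in every fit, in either direction, was not counted. Taldo1 was also the only one of the 6 members at or above 100 TPM in the macrophage libraries that had fewer than 10 reads in the library labelled Th1. Among all genes at that level 69.0% had at least 10 reads there, among genes at 10 to 100 TPM 32.9%, and among genes at 1 to 10 TPM 16.2%. Of the members at these 2 lower levels 4 of 11 and 2 of 10 had at least 10 reads, the last being Hk3 and Bnip3. Counts under 10 reads were thus common among all genes under 100 TPM. The other 7 members called lower lost the call with DESeq2's size factors, and all but Tpi1 also with DESeq2's own test: with those size factors and with TMM, the ratios were 2.80 and 8.02 for Slc2a1, 3.93 and 11.2 for Hk1, 2.15 and 6.16 for Gpi1, 1.58 and 4.52 for Pfkl, 3.11 and 8.90 for Pfkp, 3.86 and 11.1 for Tpi1, and 2.03 and 5.80 for Ldhb. The counting intervals with TMM were wide for those with 1 to 3 reads, at 2.74 to 38.9 for Slc2a1, 2.02 to 444 for Hk1, 1.252 to 37.4 for Pfkl and 2.46 to 73.5 for Pfkp.

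**Figure D4:**
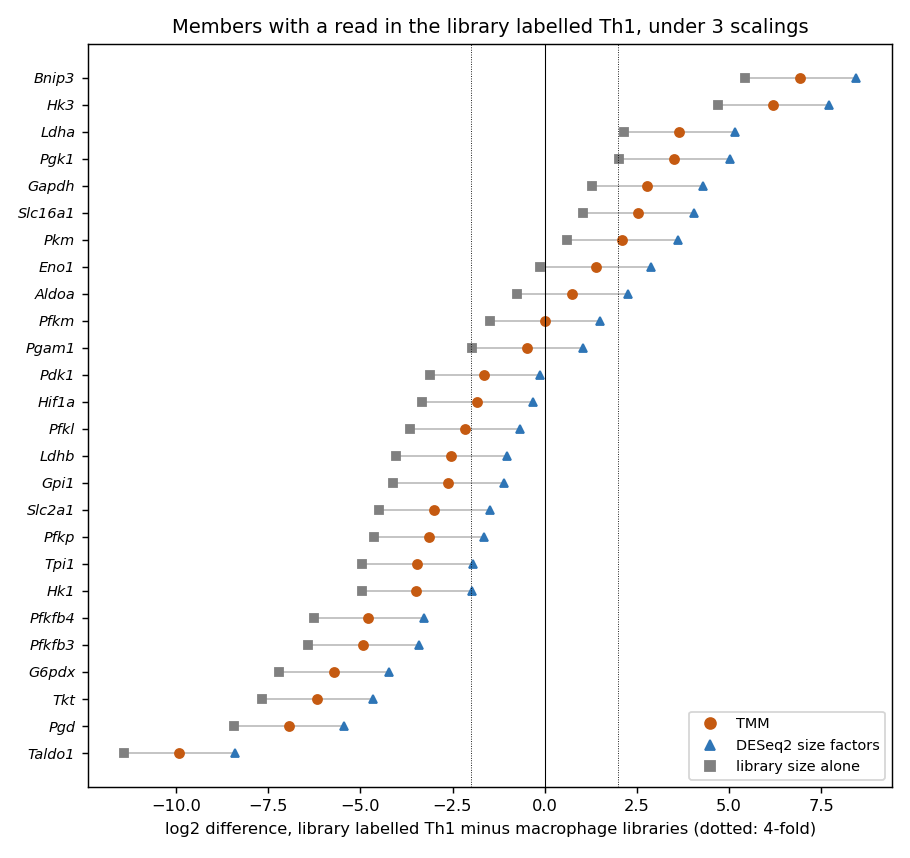
Log2 difference between the library labelled Th1 and the macrophage libraries for the 26 members with a read in both, under TMM (circles), DESeq2's size factors (triangles) and library size alone (squares), with dotted lines at 4-fold. Bnip3, Hk3, Ldha and Pgk1 lie beyond 4-fold on the right under all 3 scalings, whereas Eno1, Aldoa, Pfkm and Pgam1 cross 0 from one scaling to another.

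Other genes of the pathways also differed in both directions. Of 66 such genes 48 were tested, and 5 were called higher and 30 lower in the library labelled Th1. These are 10.4% and 62.5% of those tested, against 13.7% and 54.6% of all 11447 genes tested, so the list is not read as set apart. Of the 30, 17 had no read there and rest on fitted values: 2 of them, Pgls and Higd1a, had a bound of at least 4-fold, 15 had a smaller one, and for 9 of these the bound did not exclude equality. P4ha1, a collagen prolyl hydroxylase and HIF target, stood at 0.93, 0.99 and 1.05 TPM in the macrophage libraries and at 340 TPM in the library labelled Th1, 526-fold higher with TMM (187 to 1506 with the other scalings). Dld, a subunit of the pyruvate dehydrogenase complex, was 44.0-fold higher, Rpe, ribulose phosphate epimerase of the pentose phosphate pathway, 22.2-fold, and Mpc1, a subunit of the mitochondrial pyruvate carrier, 9.23-fold. Mpc1 was not called with library size alone. Eno1b, a near-identical copy of Eno1, had 57 reads in the library labelled Th1 against at most 0.06 TPM in the macrophage libraries, and reads of the pair may be exchanged. The 5 with the lowest fitted values had no read in the library labelled Th1. Pgls, the lactonase between G6pdx and Pgd, had 100, 108 and 111 TPM in the macrophage libraries and was at least 17.9-fold lower. Higd1a, a HIF target of mitochondria, had 35.3, 35.7 and 37.3 TPM and was at least 13.2-fold lower. Pdk3, Egln2 and H6pd had 5.54, 5.003 and 1.75 TPM in the mean of the macrophage libraries, and the bounds were only 2.55-fold for Pdk3, 2.19-fold for Egln2 and less for H6pd. Among genes with a read, named after their values were seen, Bnip3l, a relative of Bnip3 in mitophagy, was lower by a ratio of 139 with TMM (counting interval 25.02 to 5507), Cited2, a competitor of HIF1A for its coactivator, by 119 (21.4 to 4701) and Adpgk, an ADP-dependent glucokinase, by 82.6 (14.8 to 3263), each with 1 read. These 3 were called in all 8 fits.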

How the data were processed

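RNA was sequenced in 10 libraries: 3 wild-type and 3 Apc-deleted OPC cultures, 3 macrophage libraries and 1 library labelled Th1. Per the submitters' processing notes the genome build was GRCm38; the sources used here name no aligner or counter. Per the file headers, each table of sorted cells holds estimated counts, which need not be whole, and TPM, which the authors scaled to transcript length and library total. The OPC table, as deposited by the authors, holds 1 comparison with a mean normalized count per gene, a log2 fold change, its SE, p-values before and after adjustment, and a test statistic (score) equal to the log2 fold change divided by its SE. Its numerator is not named, and its sign was turned so that the Wnt targets Notum, Sp5, Lef1 and Axin2 were higher in Apc-deleted cultures. In the sorted-cell files 8 columns were not used.

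Estimated counts were rounded and fitted with edgeR 4.0.16 (R 4.3.3; filterByExpr, TMM, quasi-likelihood test, Benjamini-Hochberg over 11447 genes). Replicate macrophage libraries differed beyond sampling noise (chi-square per degree of freedom 1.29 to 2.53) and were kept as 3; p-values measure only the spread between these libraries. Counts per gene in the OPC table were divided by exon length from GENCODE M21 (99.8% of gene IDs matched) before levels of genes were compared. Coding sequences were searched with blastn 2.17.0. Alternatives comprised 2 other scalings, DESeq2 1.42.0, no filter, a fold of 2, and leaving out each macrophage library. The script was tested on simulated data. All 34 members are described; of 66 other pathway genes, the rule named those called in the OPC table (none was) and the 5 called genes with the largest fitted differences each way between the sorted groups; 3 genes with a small unadjusted p in the OPC table and 3 lower in the library labelled Th1 were added after their values were seen. The members, lists and tests were chosen with earlier results of these data known. Intervals and floors cover counting error only.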

Additional observations from a re-analysis of the deposited data

How the results depend on the processing

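The number of members called in the OPC table was 1 at an adjusted p under 0.1 and with p-values adjusted again over genes with a mean of at least 10, and 2 at an unadjusted p under 0.05. Against 6 members called higher in the library labelled Th1, DESeq2's size factors and DESeq2's own test gave 9 each, library size alone 4 and no filter 5. Against 17 called lower, DESeq2's size factors gave 10, DESeq2's own test 11, library size alone 20, no filter 18, and keeping calls with no read only where the bound reached 4-fold, a setting added after the data were seen, 17. Leaving out each macrophage library in turn gave 6 higher and 17 lower each time, so those counts ranged from 6 to 6 and from 17 to 17. Directions turned for 4 members that were not called with TMM. Pfkm, near 0 with TMM (log2 difference -0.003), was 1.51 with DESeq2's size factors and 1.35 with DESeq2's own test. On leaving out 1 macrophage library, Pfkm ranged from -0.15 to 0.39 (0.0052 in between). Aldoa (0.75 with TMM) was -0.75 and Eno1 (1.38 with TMM) -0.12 with library size alone, and Pgam1 (-0.48 with TMM) was 1.03 with DESeq2's size factors and 0.87 with DESeq2's own test. The cause was not tested beyond the change of scale itself. Dividing reads by exon length moved 17 of 18 isoform shares beyond the SD over the macrophage libraries. Leaving out a macrophage library cannot move a mean share beyond that SD, whatever the data, so it was no check of the shares. No paired analysis was possible because the OPC table holds no value per library, the group labelled Th1 has 1 sample, so the sorted groups share fewer than 2 replicate numbers. In the library labelled Th1 11 of 34 members had at least 10 reads, which widens the intervals of the rest. Taldo1, with 1 read there, was lower by a ratio of 977 with TMM, 341 with DESeq2's size factors and 2755 with library size alone. The cause of this difference was not tested.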
